A study of Mus musculus with 8 samples.

Results

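The genes described here were the TAM receptors Axl, Mertk and Tyro3 and their ligands Gas6 and Pros1, which are 5 of the 24787 genes listed over 8 libraries. They were chosen by name, together with a reading of these data in which Axl was lower after R848, so every value that sets a treated group against saline is given for them as a description, with no test. All 5 had at least 1 UMI (a distinct captured transcript molecule) in each of the 8 tumors, and over the 9886 cells kept there were 16277 UMIs of Axl, 3817 of Mertk, 1410 of Gas6, 1359 of Pros1 and 929 of Tyro3.

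TAM receptors are receptor tyrosine kinases that recognise phosphatidylserine on dying cells through a bridging ligand, either Gas6 or protein S (the product of Pros1). Binding starts efferocytosis, the engulfment of the dying cell, and restrains toll-like receptor and cytokine signalling in macrophages and dendritic cells (DCs). Mertk is known as the receptor of resident, clearing macrophages, Axl as a receptor of activated myeloid cells and of many carcinoma cells, and Tyro3 as a receptor best known in neurons.

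The cells came from MC38 tumors, grown in mice from a murine colon carcinoma cell line, and were taken 24 hours after saline (3 tumors), free R848 (3) or medium R848-BPD (2). R848 is an agonist of TLR7 and TLR8, and medium R848-BPD is a bottlebrush polymer prodrug that releases it, here in the version with the medium release rate. CD45+ and CD45- cells of each tumor were loaded 9 to 1 on Seq-Well arrays, so class sizes in these libraries follow that mixture and shares are given within classes only. Each tumor is 1 library and 1 replicate, and nothing states that tumors of different groups with the same number belong together.

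Libraries held 5867590 to 12422614 UMIs, and kept cells had a median of 3247 to 6928 UMIs per tumor. Among barcodes, 23 were found in 2 or more libraries, 9 of them in all, and 59 kept cells (0.597%) carried one. The Axl call described below held without them. Clusters were made without the 5 genes and the pathway list, and named from markers: 5339 cells were monocyte/macrophage-like, 658 DC-like, 123 neutrophil-like and 143 osteoclast-like, 660 were T-like and 1024 NK-like, and 1889 were MC38-like and 50 fibroblast-like. Levels are in CPM, UMIs scaled to the summed total of the class in a tumor, after 1 TMM scaling over all such sums, and the gene's own level is compared across classes and treatments, never with that of another gene. Log2 fold changes come from the edgeR fit within a class.

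The receptors had different places in the tumor. Among the classes with at least 10 cells in all 8 tumors, Axl was in macrophages, DCs and MC38-like cells, Mertk mainly in macrophages, and Tyro3 mainly in MC38-like cells. In the mouse genome (GRCm38, GENCODE vM21), Axl lies on chr7 from 25757273 to 25788705 on the minus strand, Mertk on chr2 from 128698956 to 128802894 and Tyro3 on chr2 from 119797733 to 119818104, both on the plus strand. The 250 bases before the RefSeq start of each receptor (GRCm38.p6) are shown because the receptors differed in the cell classes that held them. Capitals mark the GC box GGGCGG on either strand, the only one of 5 motifs searched that these 3 windows held.

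Axl, chr7:25788734-25788983, minus strand: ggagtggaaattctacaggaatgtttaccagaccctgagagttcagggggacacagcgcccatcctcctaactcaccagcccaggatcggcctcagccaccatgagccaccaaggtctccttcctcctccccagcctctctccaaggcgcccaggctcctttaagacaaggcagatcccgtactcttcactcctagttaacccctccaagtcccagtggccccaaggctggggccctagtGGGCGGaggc
Mertk, chr2:128698665-128698914, plus strand: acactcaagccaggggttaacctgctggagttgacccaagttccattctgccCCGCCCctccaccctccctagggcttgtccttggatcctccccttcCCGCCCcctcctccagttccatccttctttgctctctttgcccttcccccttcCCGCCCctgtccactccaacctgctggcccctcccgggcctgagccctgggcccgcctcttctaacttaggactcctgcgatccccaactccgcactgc
Tyro3, chr2:119799264-119799513, plus strand: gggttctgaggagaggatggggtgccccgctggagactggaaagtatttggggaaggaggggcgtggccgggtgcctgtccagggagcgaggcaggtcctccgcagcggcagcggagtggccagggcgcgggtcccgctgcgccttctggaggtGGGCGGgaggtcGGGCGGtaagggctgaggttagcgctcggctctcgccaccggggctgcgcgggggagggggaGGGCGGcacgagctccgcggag

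The GC box occurred 1 time before Axl, 3 times before Mertk and 3 times before Tyro3, and 32.7% of 32851 mouse promoter windows of the same length held at least 1. It occurred 4 times before Gas6 and 5 times before Pros1. CpG dinucleotides numbered 5 before Axl, 7 before Mertk, 24 before Tyro3, 10 before Gas6 and 15 before Pros1, against a median of 6 over all windows. AP-1 (TGANTCA, in 6.75% of windows), the interferon-stimulated response element (GAAA, 2 bases of any kind, GAAA, in 2.98%) and a nuclear receptor half-site (AGGTCA, 14%) had no match in any of the 5 windows on either strand, and the STAT site GAS (TTCNNNGAA, 7.02%) had 1, before Pros1.

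Among the classes present in all 8 tumors, Axl was highest in monocyte/macrophage-like cells of saline tumors, where it stood at 405, 453 and 367 CPM. It was 294, 296 and 308 CPM in the free R848 tumors and 133 and 119 CPM in the medium R848-BPD tumors. The 3 treatments did not overlap, saline being highest and the prodrug lowest. The means were 408 ± 42.9 (SD, n = 3), 299 ± 7.25 (n = 3) and 126 ± 10.1 CPM (n = 2), so the prodrug mean was 0.308 times and the free R848 mean 0.733 times that of saline. The log2 fold change against saline was -1.69 (SE 0.14) for the prodrug and -0.43 (SE 0.11) for free R848. Lower Axl after R848 was the reading that chose the genes, so neither contrast carries a test. Prodrug tumors were below all saline tumors for 19.5% of the 10570 genes tested in these cells, free R848 tumors were below all saline tumors for 8.79%, and prodrug tumors were below all free R848 tumors for 17.3%.

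Between the active treatments, Axl fell in monocyte/macrophage-like cells by 1.26 on the log2 scale with the prodrug against free R848 (SE 0.13, edgeR quasi-likelihood test, Benjamini-Hochberg adjusted p = 0.0042). It was 1 of the 174 genes called of 10570 (1.65%), and 1 of the 70 called lower (0.662%). The other 3 members tested in these cells, Mertk, Gas6 and Pros1, were not called, and Tyro3 was below the count filter. Leaving out prodrug tumor 2 kept the size of the Axl difference at -1.20 with an adjusted p of 0.080, and the call held in the other 17 of 18 alternative settings. This contrast was not the one that chose Axl, but it uses the same treated tumors and the genes were chosen with earlier results of these data known, so it is not independent of the choice.

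Different clusters held the monocyte/macrophage-like class in different treatments. Clusters N5 (with Mmp12 and Ccl8 among its leading genes) and N8 (with Saa3 and Pla2g7 among them) made up 59.7% and 74.1% of the class in the prodrug tumors, between 3.86% and 6.09% with free R848 and between 0.742% and 1.32% with saline. The monocyte-like clusters N1 and N9 made up 1.43% and 0.585% in the prodrug tumors, 21.3% to 33.9% with free R848 and 11.9% to 42.2% with saline. Axl was low in N5 in both treated groups, at 57.9 and 43.8 CPM with the prodrug and 31.0, 61.1 and 47.0 CPM with free R848. N5 was 2.16%, 2.93% and 3.66% of the class in the free R848 tumors, so those values rest on few cells. In N8 it was 68.8 and 89.4 CPM with the prodrug, and 142 and 252 CPM in the 2 free R848 tumors with at least 10 cells there.

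The order of treatments was also present inside 3 clusters that all treatments shared, which were not tested. In N0, led by Ccl12, Apoe and C1qa, Axl was 597, 538 and 478 CPM with saline, 385, 384 and 369 CPM with free R848 and 281 and 295 CPM with the prodrug. N4, led by the complement genes C1qc, C1qa and C1qb, held 451, 448 and 447 CPM, then 318, 356 and 400 CPM, then 227 and 249 CPM. N2, led by Fcrls, held 393, 367 and 377 CPM, then 239, 258 and 307 CPM, then 150.0 and 202 CPM. In each of these 3 clusters the 3 treatments did not overlap, an order that 0.997% of the genes with at least 100 UMIs in the cluster also showed in N0, 0.49% in N4 and 0.71% in N2. N2 and N4 held 1.95% and 2.34% of the class in prodrug tumor 2, so its values there rest on few cells. Saline and free R848 overlapped in N1 (337 to 457 and 234 to 359 CPM) and N9 (146 to 260 and 100.5 to 154 CPM), where no prodrug tumor had at least 10 cells. N6 had 266 to 409 CPM with saline, 123 to 141 CPM with free R848 and 80.5 CPM in 1 prodrug tumor. In N3, another C1q cluster, the prodrug tumors (186 and 160 CPM) were below all others, as they were for 5.04% of the genes with at least 100 UMIs there, and 1 of the free R848 tumors (472 CPM) lay between the 2 saline tumors with enough cells (488 and 448 CPM).

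**Figure D1:**
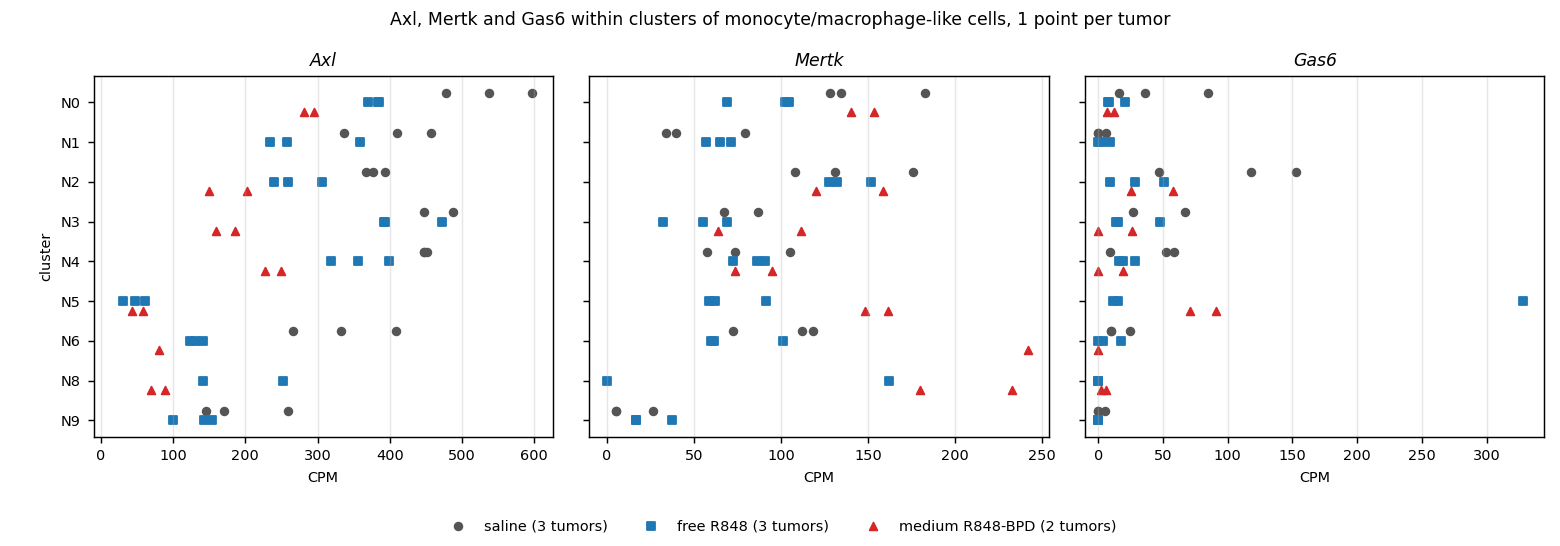
Levels of Axl, Mertk and Gas6 (CPM, linear axis) in each cluster of monocyte/macrophage-like cells, with 1 point per tumor that had at least 10 cells of the cluster, by treatment. Axl is ordered saline, free R848, prodrug without overlap in N0, N2 and N4 and lies between 31.0 and 61.1 CPM in N5, while Mertk reaches 180 and 232 CPM in N8 of the prodrug tumors.

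The study named both a monocyte and a macrophage subset after Cd38 and Saa3, found by clustering. Here monocyte/macrophage-like cells in which each of these genes had a UMI were taken instead, so they are not the subsets of the study. They numbered 370 and 288 in the prodrug tumors. Axl was 113 and 81.2 CPM in them, and 159 and 178 CPM in the rest of that class in the same tumors. In the corresponding cells of the free R848 tumors it was 298, 300.1 and 308 CPM, above the prodrug tumors, an order that 15.9% of the genes with at least 100 UMIs in those cells also showed. Within the prodrug tumors, 33.3% of such genes were lower in the cells with Cd38 and Saa3 than in the rest in both tumors, as Axl was, and 25.2% were higher in both, as were Mertk (151 and 190.4 CPM against 100.4 and 137 CPM), Gas6 (43.9 and 70.8 against 17.97 and 11.7 CPM) and Pros1 (16.3 and 45.8 against 11.98 and 15.2 CPM). These are values of 2 tumors without a test, and the part of cell depth in them was not tested.

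DC-like cells carried Axl too. It was 318, 338 and 359 CPM with saline, 127, 180 and 285 CPM with free R848, and 104 and 86.3 CPM with the prodrug, again with no overlap between treatments. Among the 5658 genes tested in these cells, 20.8% were lower in the prodrug tumors than in all saline tumors, 9.17% in free R848 than in saline and 13.2% in the prodrug than in free R848, each without overlap. The Axl means were 338 ± 20.7 (SD, n = 3), 197 ± 80.4 (n = 3) and 94.97 ± 12.3 CPM (n = 2). Counts were small, from 19 to 228 UMIs of Axl per tumor. The prodrug differed from free R848 by -1.06 (SE 0.31), which did not pass the threshold (edgeR adjusted p = 0.11, where 1.29% of 5658 genes were called). It passed in 2 of 17 alternatives, without a count filter (0.030) and without free R848 tumor 1 (0.015), and over all 17 the difference ran from -1.25 to -0.69, the latter without free R848 tumor 3, with an adjusted p of up to 0.52. The summed level of 9 macrophage markers in DC-like cells was 4.32% to 16.4% of that in monocyte/macrophage-like cells of the same tumor, and Axl was 43.2% to 97.9%. These markers also served in naming the clusters, and the part of macrophage RNA in the Axl of DC-like cells was not tested.

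In MC38-like cells Axl did not follow that order. It was 151, 202 and 165 CPM with saline, 190.2, 141 and 159.6 CPM with free R848, and 188 and 234 CPM with the prodrug, and the treatments overlapped. The prodrug differed from free R848 by 0.36 (SE 0.14, edgeR adjusted p = 0.27, where 0.303% of 10900 genes were called). The macrophage markers summed to 0.657% to 3.92% of their macrophage level in these cells, and Axl to 37.2% to 197%. The part of macrophage RNA in this Axl was not tested.

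A class-by-treatment term with the tumor as a block, added after the values had been seen, compared the responses to the prodrug over free R848. It uses the same treated tumors, and lower Axl after R848 was part of the choice of the genes, so it is not independent of that choice. The Axl response was 1.61 log2 units lower in monocyte/macrophage-like than in MC38-like cells (-1.61, SE 0.20, edgeR adjusted p = 0.0049, with 0.647% of 11902 genes called). Without prodrug tumor 2 it was -1.43 with an adjusted p of 0.082. Against DC-like cells the difference in response was -0.22 (SE 0.33, edgeR adjusted p = 0.98, with 0.401% of 10475 genes called), a difference too poorly measured to say that the responses were alike.

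T-like cells had Axl at 80.5, 104 and 106 CPM with saline, 25.1, 46.4 and 50.6 CPM with free R848 and 27.4 and 20.7 CPM with the prodrug. Their macrophage markers stood at a median of 12.3% (range 7.15% to 34.4%) of the macrophage level, and Axl at 18.6% (8.53% to 28.8%). The 2 ranges overlap, and the part of macrophage RNA in the T-like level was not tested. NK-like cells had 1.45 to 31.4 CPM. Fibroblast-like cells had 435 and 597 CPM in the 2 prodrug tumors, the only ones with at least 10 such cells (11 and 28). The MC38 markers (Mtap, Rhox5, Fam159b and the collagen gene Col6a2) summed to 1382 and 1714 CPM in those cells, against 1545 to 2300 CPM in MC38-like cells. The part of MC38 RNA in their levels was not tested. Osteoclast-like cells, a group defined by Ctsk, Acp5 and other osteoclast genes, had 258 CPM in free R848 tumor 2 and 339 CPM in saline tumor 3.

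**Figure D2:**
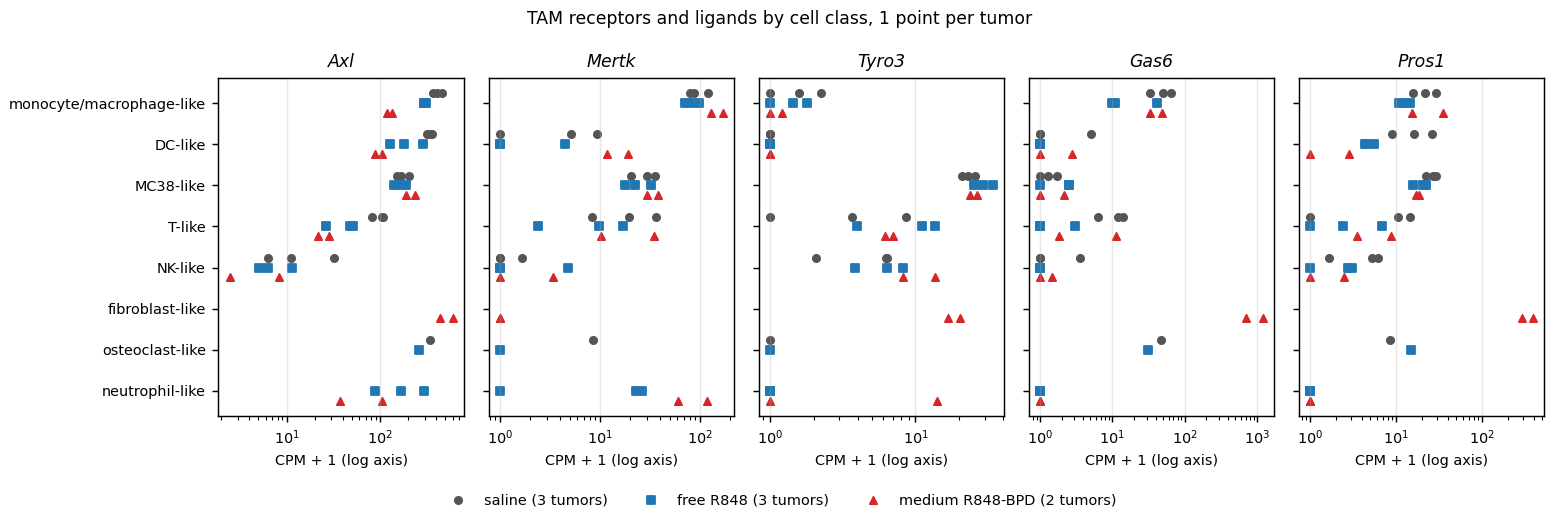
Levels of the 5 genes (CPM + 1, log axis) in 8 cell classes, with 1 point per tumor that had at least 10 cells of the class, by treatment. Axl separates the treatments in monocyte/macrophage-like and DC-like cells but not in MC38-like cells, Tyro3 is highest in MC38-like cells, and Gas6 and Pros1 are highest in fibroblast-like cells.

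Over all 8 tumors, Axl was higher in monocyte/macrophage-like than in DC-like cells in 8 of 8 tumors, by 0.45 ± 0.37 on the log2 scale (SD, two-sided exact permutation test of paired differences, p = 0.0078, adjusted over 20 pairs of neighbouring classes and genes p = 0.022). The next neighbours, DC-like and MC38-like cells, differed by 0.16 ± 0.98 with 5 of 8 tumors higher in DC-like cells (exact p = 0.66), and MC38-like cells were the higher without TMM scaling. The place of MC38-like cells in this order differed by treatment, above both myeloid classes in the 2 prodrug tumors and below both in the 3 saline tumors. MC38-like cells exceeded T-like cells by 1.84 ± 1.05 and T-like exceeded NK-like cells by 2.63 ± 1.07, each in 8 of 8 tumors (exact p = 0.0078, adjusted p = 0.022). With 8 pairs this test cannot give a p under 0.0078.

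Mertk, the receptor tied most closely to clearance of dying cells, was highest in monocyte/macrophage-like cells, where the prodrug tumors had the highest levels. It was 79.1, 86.4 and 119 CPM with saline, 70.3, 97.1 and 78.4 CPM with free R848, and 129 and 169.8 CPM with the prodrug. Both prodrug tumors were above all others, while saline and free R848 overlapped. The means were 94.8 ± 21.2, 81.9 ± 13.7 and 149 ± 28.9 CPM (SD, n = 3, 3 and 2). Prodrug tumors were above all free R848 tumors for 18.4% of the genes tested, and above all saline tumors for 20.7%.

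The prodrug differed from free R848 by 0.85 for Mertk (SE 0.22), which did not pass the threshold (edgeR adjusted p = 0.10). Over 18 alternative settings the adjusted p ran from 5.0e-05 to 0.60 and 5 passed, among them DESeq2 (0.034), a fit to the compared groups alone (0.033), classes from the marker gate (0.046) and the fit without saline tumor 2 (0.046). Against saline the log2 fold change was 0.66 (SE 0.22) for the prodrug and -0.19 (SE 0.20) for free R848, both without a test. The prodrug value was 0.43 without prodrug tumor 2 and 0.32 in macrophage-like clusters alone, and the free R848 value was -0.32 without free R848 tumor 2 and 0.01 without saline tumor 3.

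Within clusters, Mertk varied with the cluster as well as the treatment. In N5 it was 148 and 162 CPM with the prodrug and 62.0, 91.6 and 58.8 CPM with free R848. In N8 it was 180 and 232 CPM with the prodrug, on 167 and 117 UMIs. The 2 free R848 tumors with at least 10 cells in N8 had 0 and 162 CPM there. In N2 and N4 the 3 treatments overlapped, with means of 137 to 139 CPM in N2 and 78.8 to 84.1 CPM in N4. In N0 the prodrug tumors (154 and 140.2 CPM) were above free R848 (68.7, 105 and 103 CPM) and within the saline range (134, 128 and 183 CPM). The monocyte-like cluster N9, led by Chi3l3, Lyz2 and Vcan, had 5.02 to 37.2 CPM. Of the genes with at least 100 UMIs in the cluster, 14.7% were also above all free R848 tumors with the prodrug in N5 and 20% in N0, and the free R848 values of N5 rest on 4, 12 and 5 Mertk UMIs.

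At a common depth of 1000 UMIs per cell, the share of monocyte/macrophage-like cells with an Axl UMI was 24.1%, 33.6% and 23.7% with saline, 20.6%, 21.2% and 18.6% with free R848, and 9.60% and 7.03% with the prodrug. Prodrug and free R848 means differed by 11.8 points (p = 0.1 by a two-sided permutation of tumors, run exactly, where 2 against 3 tumors can give no smaller value). The share with a Mertk UMI was 4.53%, 7.95% and 7.59%, then 4.71%, 7.09% and 4.50%, then 8.88% and 12.9%, with prodrug tumors above free R848 tumors by 5.45 points on average (exact p = 0.1). Thinning left out between 0 and 20 cells per tumor. At full depth, with median cell depths of 4846 to 5290 UMIs over the treatments, the mean Axl shares were 66.2%, 60.2% and 32.1% and the mean Mertk shares 26.9%, 25.9% and 42.3%.

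In T-like cells at 1000 UMIs, the mean share with an Axl UMI was 8.17% with saline, 3.43% with free R848 and 3.52% with the prodrug, and in NK-like cells it was 0.830%, 1.09% and 0%. For Mertk the T-like means were 2.26%, 0.922% and 1.52%, and no NK-like cell had a UMI. Median depths of T-like cells were 4344 to 5596 UMIs. Macrophage shares of both genes were above these levels in every treatment.

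Cells with Mertk and no Axl UMI at 1000 UMIs averaged 4.58% with saline, 4.17% with free R848 and 10.3% with the prodrug, and cells with Axl and no Mertk UMI averaged 25.02%, 18.9% and 7.74%. The exact permutation test of prodrug against free R848 gave p = 0.1 for each, its smallest possible value. Cells with both were 2.11% ± 0.788, 1.27% ± 0.302 and 0.580% ± 0.00905 (SD, n = 3, 3 and 2). A cell with 1 UMI of one gene and none of the other at this depth may still contain both transcripts.

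**Figure D3:**
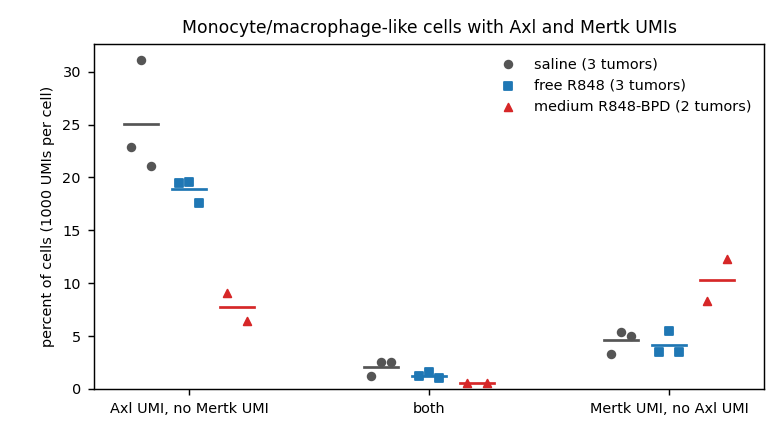
Percent of monocyte/macrophage-like cells, each thinned to 1000 UMIs, with Axl but no Mertk UMI, with both, or with Mertk but no Axl UMI. Points are tumors and short horizontal lines are treatment means, and Axl-only cells average 25.02% with saline and 7.74% with the prodrug, Mertk-only cells 4.58% and 10.3%.

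Among the classes present in all 8 tumors, Mertk was next highest after macrophages in MC38-like cells, at 16.7 to 36.9 CPM, lower than in monocyte/macrophage-like cells by 1.87 ± 0.39 log2 units in 8 of 8 tumors (exact p = 0.0078, adjusted p = 0.022). MC38-like Mertk overlapped across treatments, with a prodrug difference from free R848 of 0.46 (SE 0.26, edgeR adjusted p = 0.43). Mertk ranged from 16.7% to 40.7% of the macrophage level there, above the 3.92% reached by the macrophage markers. T-like cells had 1.39 to 36.003 CPM at a median of 14% of the macrophage level, against 12.3% for the markers. The part of macrophage RNA in the Mertk of MC38-like and T-like cells was not tested. DC-like cells had 0 to 18.2 CPM on 15 UMIs in all, 10 of them in the prodrug tumors, and neutrophil-like cells, with at least 10 cells in 5 tumors, had 25.3, 0 and 22.03 CPM with free R848 and 60.3 and 118 CPM with the prodrug, on 18 UMIs in all. The macrophage markers summed to 3041 to 15260 CPM in those neutrophil-like sums, and the part of macrophage RNA in their Mertk was not tested.

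Among the classes present in all 8 tumors, Tyro3 was highest in MC38-like cells. There it was 21.9, 24.6 and 19.98 CPM with saline, 28.1, 24.4 and 33.0 CPM with free R848, and 22.7 and 25.3 CPM with the prodrug. The treatments overlapped, and the prodrug differed from free R848 by -0.23 (SE 0.18, edgeR adjusted p = 0.59). Tyro3 in MC38-like cells exceeded that in T-like cells by 2.23 ± 1.11 log2 units in 8 of 8 tumors (exact p = 0.0078, adjusted p = 0.022). Fibroblast-like cells had 19.2 and 15.6 CPM in the 2 prodrug tumors, on 3 UMIs each.

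Myeloid cells had next to none of it. Monocyte/macrophage-like cells had 14 Tyro3 UMIs of 32647410 UMIs in 5339 cells, at 0 to 1.24 CPM per tumor, and DC-like cells had 0 of 3155365, where 3 UMIs would be 0.951 CPM before TMM scaling. T-like cells (0 to 12.6 CPM) and NK-like cells (1.06 to 12.6 CPM, 26 of 54 UMIs in prodrug tumor 1) held low levels whose difference was within their spread (-0.15 ± 0.99, exact permutation p = 0.70). NK-like cells exceeded monocyte/macrophage-like cells in Tyro3 by 2.16 ± 0.79 log2 units in 8 of 8 tumors (exact p = 0.0078, adjusted p = 0.022).

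**Figure D4:**
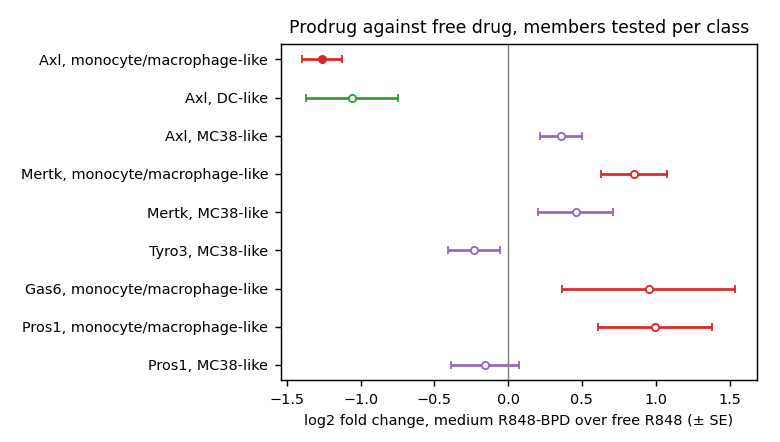
Log2 fold change of medium R848-BPD over free R848 with its standard error for each gene that passed the count filter in monocyte/macrophage-like (red), DC-like (green) and MC38-like (purple) cells. The filled point, Axl in monocyte/macrophage-like cells at -1.26, passed an adjusted p of 0.05, and open points did not.

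Among the ligands, Gas6, the vitamin K dependent ligand of all TAM receptors, lies on the minus strand of chr8 from 13465374 to 13494490. Monocyte/macrophage-like cells had 48.8, 32.3 and 64.6 CPM with saline, 8.79, 40.9 and 9.91 CPM with free R848, and 32.7 and 48.0 CPM with the prodrug. Free R848 tumor 2 was among the saline tumors, and the other free R848 tumors were below all saline and prodrug tumors. The prodrug differed from free R848 by 0.95 (SE 0.59, edgeR adjusted p = 0.52), and by 2.08 without free R848 tumor 2. Against saline the log2 fold change was -1.21 (SE 0.53) for free R848 and -0.26 (SE 0.57) for the prodrug, without a test. The first was -2.35 without free R848 tumor 2 and -0.84 without free R848 tumor 1. The second had no stable sign, at -0.57 without prodrug tumor 2, 0.03 without prodrug tumor 1 and 0.27 in classes from the marker gate.

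Gas6 levels varied among clusters. In N2 it was 118, 46.8 and 153 CPM with saline, 9.09, 50.7 and 28.2 CPM with free R848 and 25.01 and 57.7 CPM with the prodrug. In N5 it was 70.8 and 91.3 CPM with the prodrug and reached 328 CPM, on 43 UMIs, in free R848 tumor 2, against 15.5 and 11.8 CPM on 1 UMI each in the other 2 free R848 tumors. The monocyte-like clusters N1 and N9 had at most 4 Gas6 UMIs in any tumor, and N8 of the prodrug tumors had 2 and 3. N5 and N8, both large with the prodrug, thus had unlike Gas6 levels.

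The highest Gas6 was in fibroblast-like cells, at 1215 and 707 CPM in the 2 prodrug tumors. Osteoclast-like cells had 29.8 and 46.6 CPM. MC38-like cells had 27 UMIs of Gas6 in 24220522 UMIs, at most 1.55 CPM per tumor, DC-like cells had 2 UMIs and NK-like cells 3. Macrophage exceeded T-like levels by 2.94 ± 0.96 log2 units in 8 of 8 tumors (exact p = 0.0078, adjusted p = 0.022), and no neighbouring pair below that passed the test.

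Pros1, encoding the anticoagulant protein S, lies on the plus strand of chr16 from 62854307 to 62929346. It was 28.0, 20.7 and 14.8 CPM with saline in monocyte/macrophage-like cells, 11.3, 13.4 and 9.91 CPM with free R848, and 14.4 and 34.0 CPM with the prodrug. Free R848 tumors were below all others, where 8.79% of the genes tested were lower with free R848 than in all saline tumors and 18.4% higher with the prodrug than in all free R848 tumors. The prodrug differed from free R848 by 0.99 (SE 0.39, edgeR adjusted p = 0.28), a difference that was 0.27 without prodrug tumor 2. The cells of that tumor's N5 cluster held 61 of its 75 Pros1 UMIs. Of 18 alternatives for Gas6 and for Pros1, each passed in 1, the fit without a count filter.

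In MC38-like cells Pros1 was 26.2, 21.3 and 28.5 CPM with saline, 14.9, 21.1 and 19.7 CPM with free R848, and 17.3 and 15.96 CPM with the prodrug. Both treated groups were below saline with no overlap, which 7.16% (free R848) and 13.6% (prodrug) of the 10900 genes tested in these cells also showed. The separation of free R848 from saline was 21.1 against 21.3 CPM, and was absent without TMM scaling, where free R848 tumor 2 had 28.7 CPM and saline tumor 2 had 27.6 CPM. Prodrug and free R848 differed by -0.16 (SE 0.23, edgeR adjusted p = 0.81). MC38-like and monocyte/macrophage-like levels did not differ beyond their spread (0.25 ± 0.64, exact p = 0.30), though without TMM scaling MC38-like cells were higher by 0.92 (exact p = 0.016). Fibroblast-like cells had 294 and 395 CPM, so both ligands were highest in the same 39 cells.

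Genes whose level followed a member most closely over 46 sums of a class in a tumor were named by Pearson's r of log2 CPM, as a description. Sums of 1 class share a cell type and sums of 1 tumor a library. Piezo1 (r = 0.93), Plxnb2 (0.91), Sh3pxd2b (0.89), Mmp14 (0.89) and Myo1c (0.88) were nearest to Axl. For Mertk they were Gab1 (0.86), G6pdx (0.81), Maf (0.79), Fgd4 (0.79) and Xylt2 (0.78), for Tyro3 Plod2 (0.86), Gar1 (0.85), Rcn1 (0.84), Phgdh (0.82) and Cbx6 (0.82), for Gas6 Cxcl14 (0.90), Col14a1 (0.83), Glul (0.79), Rcan1 (0.76) and Fblim1 (0.76), and for Pros1 Emilin1 (0.79), C1ra (0.79), Clmp (0.79), Angptl2 (0.76) and Igsf8 (0.76).

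The other genes of efferocytosis were taken from a list of 47 genes in 5 groups, of which 40 were tested in monocyte/macrophage-like cells. This list too was made with earlier results of these data known. With the prodrug against free R848, 2 rose and 0 fell where 0.984% of all genes were called higher and 0.662% lower (edgeR). The median log2 fold change was 0.04 over the 40 and -0.01 over all genes. At an unadjusted edgeR p under 0.05, 6 were higher and 6 lower, where 1511 of all 10570 genes passed. DESeq2 after adjustment called 4 higher and 4 lower, where it called 202 of 10568 genes higher and 174 lower. Against saline 5 rose and 3 fell with the prodrug, where 7.3% of all genes were called (3.64% higher and 3.66% lower). With free R848 against saline edgeR called none of the 40, where 0.0189% of all genes were called. At an unadjusted edgeR p under 0.05, 2 were higher and 6 lower, where 1199 of 10570 genes passed. DESeq2 called 1, where it called 38 of 10568 genes.

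By group, with the prodrug against saline, 2 of 8 sterol-handling genes rose (Rxra and Nr1h3), and 1 of 10 tested alternative receptors and bridging proteins rose (Cd36) while 2 fell (Itgav and Itgb5). In the engulfment machinery 1 of 7 rose (Ptk2) and 1 fell (Dock1), and 1 of 7 genes of phosphatidylserine exposure and don't-eat-me signals rose (Ano6). None of 8 genes of TAM signalling, receptor shedding and ligand carboxylation passed. The median log2 fold change was -0.47 in that group and -0.0035 over all genes tested. In the other groups it was 0.19 (sterol handling), -0.12 (alternative receptors and bridging proteins), -0.09 (engulfment machinery) and 0.08 (phosphatidylserine exposure and don't-eat-me signals).

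Rxra, the shared partner of nuclear receptors that sense lipids after engulfment, was 77.5 and 93.8 CPM with the prodrug, 32.0, 35.0 and 30.6 CPM with free R848 and 37.2, 29.5 and 48.5 CPM with saline. It rose by 1.38 (SE 0.21, edgeR adjusted p = 0.020) against free R848 and by 1.18 (SE 0.21, adjusted p = 0.014) against saline. The first call held in 14 of 18 alternatives, and was lost on leaving out any 1 free R848 tumor or prodrug tumor 2. Nr1h3, the liver X receptor alpha gene, rose by 1.43 against saline (SE 0.30, adjusted p = 0.027), from 68.0 ± 20.9 CPM to 182 ± 33.9 CPM (SD, n = 3 and 2), and its free R848 mean was 167 ± 55.7 CPM (n = 3).

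Ano6, a scramblase that exposes phosphatidylserine, was 194 and 212 CPM with the prodrug, 132, 127 and 128 CPM with free R848 and 139, 153 and 152 CPM with saline. It rose by 0.64 (SE 0.12, adjusted p = 0.034) against free R848 and by 0.46 (SE 0.12, adjusted p = 0.046) against saline, calls that held in 10 and 7 of 18 alternatives. Cd36, a scavenger receptor, rose by 1.68 against saline (SE 0.41, adjusted p = 0.042), with 202 and 428 CPM in the prodrug tumors against 109, 50.9 and 139 CPM, and the rise was 1.01 without prodrug tumor 2. Ptk2, which encodes focal adhesion kinase, rose by 1.61 (SE 0.35, adjusted p = 0.028).

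Itgav and Itgb5, which together encode an integrin that binds the bridging protein Mfge8, fell by 0.88 (SE 0.18, adjusted p = 0.023) and by 1.06 (SE 0.24, adjusted p = 0.032) on the log2 scale with the prodrug against saline. Itgb5 was 137 and 74.3 CPM with the prodrug and 213, 261 and 193 CPM with saline. Dock1, an activator of Rac in engulfment, fell by 1.07 (SE 0.24, adjusted p = 0.034). Each of the 8 calls against saline was lost without prodrug tumor 2 and in a fit to the 2 groups compared, and all kept their direction in every alternative, with an edgeR adjusted p of at most 0.36. Calls other than that of Itgav were also lost without 1 or more other tumors. Those of Itgav and Rxra held in 15 of 18 alternatives, and the other 6 in 7 to 12.

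In DC-like cells 27 of the 47 genes were tested. Abca1, a cholesterol exporter, rose by 2.77 against free R848 (SE 0.52, edgeR adjusted p = 0.013), from a mean of 13.7 ± 7.02 CPM (SD, n = 3) to 99.5 ± 32.7 CPM (n = 2), and was the only gene of the list called in that contrast, where 0.919% of all genes were called higher. The call held in 14 of 17 alternatives and was lost without free R848 tumor 3, without prodrug tumor 2 and in classes from the marker gate, where the adjusted p was at most 0.19 and the rise 1.78 with the gate. Against saline, Abca1 rose (2.47, SE 0.50) and 3 genes of the list fell, Mfge8 (-1.99), Elmo1 (-1.13) and Ifnar1 (-0.82), where 8.85% of all genes were called higher and 8.25% lower (edgeR), in 1 fit with no alternatives run. In monocyte/macrophage-like cells Abca1 had a mean of 546 ± 52.3 CPM with the prodrug and 328 ± 33.5 CPM with free R848, a difference of 0.72 that did not pass (SE 0.17, edgeR adjusted p = 0.082). Of 40 genes tested in MC38-like cells, edgeR called none with the prodrug against free R848, where 0.303% of 10900 genes were called. At an unadjusted edgeR p under 0.05, 5 were higher and 4 lower, where 1619 of 10900 genes passed. DESeq2 called 1, where it called 169 of 4772 genes.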

How the data were processed

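The authors deposited tables of UMI counts per gene and cell barcode for each tumor, sequenced as polyA RNA by Seq-Well. bcl2fastq and mm10 are named in the submitters' processing notes, and the aligner and annotation are not given in the sources used here. Cells with over 400 and under 10000 genes, under 50000 UMIs and at most 15% mitochondrial UMIs were kept. Clusters (Seurat 5.3.0, R 4.3.3) were named from marker genes, and the 5 genes and the pathway genes were left out of clustering. Doublets (100 cells) were marked by Scrublet (scanpy 1.11.5) and kept, none of them monocyte/macrophage-like. Counts were summed per class and tumor and tested with edgeR 4.0.16 (quasi-likelihood, all 3 groups in the fit, filterByExpr on low counts, Benjamini-Hochberg over all genes of the class, threshold 0.05). DESeq2 1.42.0 was an alternative. Shares used cells thinned to 1000 UMIs. Paired class differences and shares used exact permutation tests (scipy 1.17.1). Scripts were tested on simulated data.

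The members and gene lists were chosen with earlier results of these data known. All 5 members were named, together with called genes of the pathway list and the 5 genes nearest to each member. P-values measure the spread between tumors, each 1 library. No protein sequences were used here. A leading gene of some clusters is not reported here.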

Additional observations from a re-analysis of the deposited data

Results flagged for a closer look

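The response of Axl to the prodrug over free R848 differed between 2 cell classes. It was lower in monocyte/macrophage-like than in MC38-like cells by the class-by-treatment term (-1.61, SE 0.20, edgeR quasi-likelihood test with the tumor as a block, adjusted p = 0.0049). The term was chosen after the data had been seen. Lower Axl after R848 in these tumors was also part of the choice of the genes, so the test is not independent of that choice. Over its alternatives it ran from -1.81 to -1.43, and the call was lost without prodrug tumor 2.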

How the results depend on the processing

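In monocyte/macrophage-like cells the 174 calls of the prodrug against free R848 became 376 with DESeq2, 922 without a count filter, 508 in a fit to the compared groups, 97 in macrophage-like clusters and 15 to 579 on leaving out 1 tumor (15 without free R848 tumor 3, 579 without saline tumor 2). The 2 calls of free R848 against saline became 38, 531 and 1 in the first 3 of these settings, 1 with the marker gate and 1 to 132 on leaving out 1 tumor (132 without saline tumor 2). The 772 of the prodrug against saline became 1761 without a filter, 166 with the compared groups and 89 to 1243 on leaving out 1 tumor (89 without prodrug tumor 2, 1243 without saline tumor 2). In DC-like cells 73 became 274, 43, 21 with the marker gate and 21 to 289 on leaving out 1 tumor. In MC38-like cells 33 became 169 with DESeq2, 570 without a filter and 4 to 370 on leaving out 1 tumor. The cause was not tested.

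Correlations of same-numbered tumors in monocyte/macrophage-like cells ran from -0.23 to 0.22. Tumors with different numbers were not compared, so these values cannot show whether same-numbered tumors share a batch. With the replicate block the calls in the order above were 71, 1, 426, 27 and 14, the Axl call against free R848 held, and 6 of the 8 efferocytosis genes called against saline (those other than Rxra and Dock1) were not called.

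The share differences at 2000 UMIs and without thinning were -18.6 and -28.1 points for Axl and 8.40 and 16.4 points for Mertk. Some small class differences changed sign: Axl of DC-like minus MC38-like cells (-0.54 without TMM, -0.12 with the marker gate), Tyro3 of T-like minus NK-like cells (0.14, gate) and of monocyte/macrophage-like minus DC-like cells (-1.36, gate), Gas6 of DC-like minus MC38-like cells (0.19, gate, and 0.40 in saline tumors alone) and of MC38-like minus NK-like cells (-0.46, gate, and -0.24 in saline tumors). Against saline in monocyte/macrophage-like cells, the prodrug value of Pros1 (0.14) ran from -0.58 without prodrug tumor 2 to 0.70 without prodrug tumor 1, that of Gas6 (-0.26) from -0.57 to 0.27, and the free R848 value of Mertk (-0.19) from -0.32 to 0.01. Against free R848, Pros1 ran from 0.27 to 1.55 and Gas6 from 0.58 to 2.08. In MC38-like cells the prodrug differences from free R848 ran from 0.23 to 0.49 for Axl, 0.25 to 0.73 for Mertk, -0.34 to -0.10 for Tyro3 and -0.33 to -0.05 for Pros1. The Mertk class-by-treatment term against MC38-like cells was -0.059 without prodrug tumor 2 and at most 0.81 on leaving out 1 tumor. No cluster met the rule for removal on quality, so that alternative gave no separate value. Leaving out shared barcodes and the low-UMI MC38-like cluster were alternatives chosen after seeing the data. With 2 prodrug tumors and few UMIs of Tyro3 outside MC38-like cells, small differences were not detectable.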
